A study of Arabidopsis thaliana with 2 samples.

Results

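The cold, touch and defence hormone markers described here are 5 genes read by 1 probe set each, out of 13513 probe sets that name a single gene and 22746 non-control probe sets in all. They are the cold and touch markers ZAT10 and COR15A, and the jasmonate and salicylate markers THI2.1, JRG21 and GRX480. They were chosen by name, with their signals in these data already known, so their ratios are a description and support nothing by themselves. The samples were 1 stem sample of 35S::AtC3H14 plants and 1 of wild type, both Columbia (Col-0) and 30 days old. Both were grown on soil at 23 °C with 16 h light and 8 h dark, and the stem was sampled between its base and internode 3. The 35S promoter comes from a plant virus and drives expression in most tissues, so the transgene is not limited to the stem. AtC3H14 is a zinc finger protein of the CCCH type, named in the series title as a direct target of the secondary wall regulator MYB46. The labels do not state how many transgenic lines or plants were pooled for the overexpressor sample.

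Cold induces COR genes through the CBF transcription factors, and their hydrophilic products protect membranes during freezing. Touch and wounding induce a fast, calcium-linked set of transcription factors and calmodulin-like proteins. Jasmonate, released by wounding and insect feeding, and salicylate, released on infection by biotrophic pathogens, switch on largely separate defence genes, and each can dampen the output of the other. Marker genes of these pathways are commonly read as a record of the stress that a plant has met, although most of them answer to more than 1 signal.

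Signals are MAS5 values on a linear scale in arbitrary units, made by the authors, from the Affymetrix ATH1 array. Each ratio is 35S::AtC3H14 over wild type. Low values were limited by a floor of 104.0, below which 40% of non-control signals lay, and a gene below it on 1 array has only a bound, written "at least N-fold". There was 1 array per group, so no difference had a replicate check, no test was possible, and a fixed size of 2-fold was used to describe genes. The only spread at hand came from 58 genes with several probe sets (117 in all), whose log2 ratios had a pooled SD of 0.35 within a gene. That spread says nothing of plants, extractions or hybridizations. AtC3H14 itself (AT1G66810) had a signal of 8655 in 35S::AtC3H14 stems and 244 in wild type, the direction of its label.

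ZAT10 and COR15A had about 3 times the wild-type signal in the overexpressor, and JRG21 and GRX480 were lower than in wild type by more than 3-fold. THI2.1, a jasmonate marker, lay on the side of the cold and touch markers, at a ratio under 2-fold. The jasmonate and salicylate markers therefore did not share 1 direction. Of the 5 genes, 2 exceeded 2-fold upward, 2 exceeded it downward and 1 lay under 2-fold. Among all 14469 probe sets that reached the floor on at least 1 array, 763 (5.27%) were 2-fold or more higher and 836 (5.78%) were 2-fold or more lower. Since the genes were chosen from this same comparison, nothing is read from their count against those shares.

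**Figure D1:**
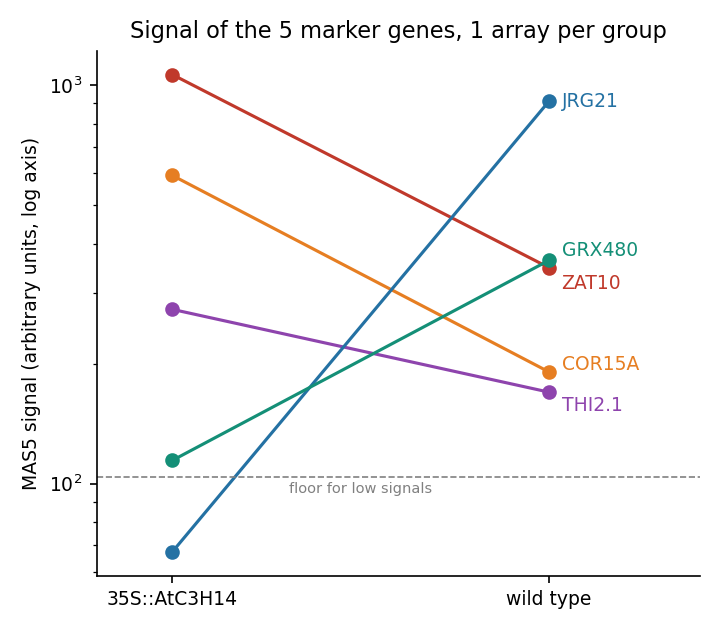
MAS5 signal (log axis, arbitrary units) of each marker gene on the 35S::AtC3H14 array (left) and the wild-type array (right), 1 array per group, with the floor of 104.0 as a dashed line. ZAT10, COR15A and THI2.1 slope down towards wild type, GRX480 and JRG21 slope up, and JRG21 lies below the floor in 35S::AtC3H14.

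ZAT10 (AT1G27730, listed as STZ in the gene table) encodes a C2H2 zinc finger repressor induced by cold, salt, drought, touch and wounding. Its signal was 1061 in 35S::AtC3H14 stems, against 348 in wild type, a log2 ratio of 1.61 or 3.05-fold higher. Of all non-control probe sets, 85.1% had a lower signal on the 35S::AtC3H14 array and 62.9% on the wild-type array. Its ratio ranked 224th from the highest among the 14469 measured probe sets.

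COR15A (AT2G42540) encodes a chloroplast protein that stabilises membranes in freezing cells, and is a classical target of the CBF factors. Its signal was 593 in 35S::AtC3H14 stems and 191 in wild type, a log2 ratio of 1.64 or 3.11-fold higher. The wild-type signal was only 1.83 times the floor, so low signal limits this ratio more than that of ZAT10, whose wild-type signal was 3.35 times the floor. With the floor raised to the 60th percentile, a signal of 308, the wild-type signal fell below it. COR15A then had only a bound of 0.94 in log2 ratio, which does not reach 2-fold and leaves its size open.

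THI2.1 (AT1G72260) encodes a thionin, a small antimicrobial protein of the cell exterior, and is a textbook marker of jasmonate signalling. Its signal was 274 in 35S::AtC3H14 stems, against 170 in wild type, a log2 ratio of 0.69 or 1.61-fold. The wild-type signal was 1.63 times the floor. Scaling the arrays to the spiked hybridization controls brought its log2 ratio to 0.17, smaller than the SD of 0.35 between probe sets of 1 gene. That SD does not measure the spread between samples.

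JRG21 (AT3G55970), whose table name is jasmonate-regulated gene 21, encodes an oxygenase that hydroxylates jasmonic acid and so removes it from signalling. Its signal was 67.5 in 35S::AtC3H14 stems, below the floor, and 910 in wild type, so that it was at least 8.75-fold lower. Among the 14469 measured probe sets, 21 had a log2 ratio or bound as low as its own, itself included. For scale, the 27 bacterial control probe sets outside the spiked hybridization controls reached at most 62.4, so the overexpressor signal lay near background. The wild-type signal was 8.75 times the floor.

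GRX480 (AT1G28480, also ROXY19) encodes a CC-type glutaredoxin, induced by salicylate, that binds TGA transcription factors and represses the jasmonate defensin gene PDF1.2 when overexpressed. Its signal was 114 in 35S::AtC3H14 stems, against 363 in wild type, a log2 ratio of -1.67 or 3.17-fold lower. The overexpressor signal lay just above the floor. With the floor raised to the 60th percentile, the overexpressor signal lay below it and the log2 ratio became a bound of -0.24. That bound is small because the raised floor lies near the wild-type signal, and it leaves the size open.

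The difference between the 2 sets was 2.99 in log2 ratio, the mean of 1.62 for ZAT10 and COR15A minus the mean of -1.37 for THI2.1, JRG21 and GRX480, with JRG21 entered at its bound. This mean hides the position of THI2.1, which was nearer to ZAT10 than to GRX480. On the plot of ratio against brightness the 5 genes lie at low to middle signal.

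**Figure D2:**
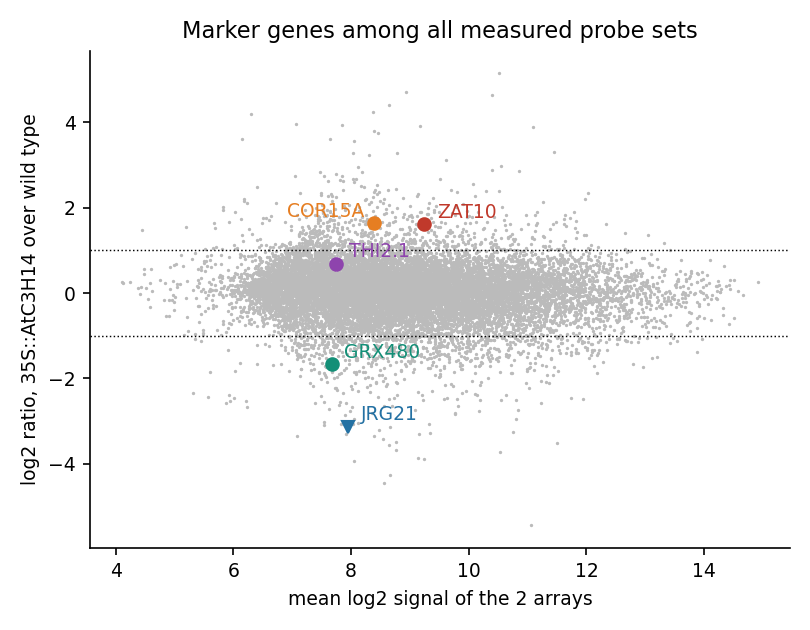
Log2 ratio, 35S::AtC3H14 over wild type, against the mean log2 signal of both arrays for the 14469 measured probe sets (grey), with the 5 marker genes in colour and dotted lines at 2-fold. ZAT10 and COR15A lie above the upper line, THI2.1 below it, GRX480 and JRG21 (triangle, a bound) below the lower line.

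For each marker the 2 other genes with a symbol nearest to it in the plane of the 2 log2 signals were taken, out of 1551 probe sets with a symbol. With 2 arrays this likeness means only a similar level and a similar ratio. Nearest to ZAT10 were Cpn60beta2, at a distance of 0.10 log2 units, and FTSZ2-2, at 0.42. CYP71B34 and UBC20 were nearest to COR15A, at 0.16 and 0.20, and PAC and TRM19 to THI2.1, at 0.03 and 0.05. JRG21 had more distant neighbours, ADPG1 at 0.49 and PYK10 at 0.63, both below the floor in the overexpressor. GRX480 was closest to the vacuolar sugar transporter SWEET16, at 0.04, and to the calmodulin-like gene CML41, at 0.20.

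The other genes of the pathways were read from lists of loci. Across 14 lists there were 193 loci, of which the annotation used names 49 as the single gene of a probe set, and 36 reached the floor on at least 1 array (called measured). That annotation leaves 8730 probe sets unlisted, so a listed gene without a named probe set may still be on the array. Over all 14469 measured probe sets the median log2 ratio was 0.05.

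The cold list did not follow COR15A as a whole. Of its 22 genes 4 were measured: 2 were 2-fold or more higher, 1 was 2-fold or more lower and 1 was under 2-fold, with a median log2 ratio of 0.30. COR15B, the paralogue beside COR15A on the chromosome, had a signal of 331 in 35S::AtC3H14 stems and 112 in wild type, 2.95-fold higher. Both COR15 genes were thus higher by a similar ratio, though probe sets of such close relatives can share signal. The dehydrins, proteins that protect dehydrating cells, lay on the other side. LTI30 had a signal of 1233 in 35S::AtC3H14 stems, against 2620 in wild type, 2.12-fold lower, and COR47 had 3201 against 6191 in wild type, a log2 ratio of -0.95. The COR15 genes and the dehydrins thus had ratios of opposite sign, and the median of the 3 genes other than COR15A was -0.95. Scaled to the hybridization controls, the cold list median was -0.22 and that of all measured probe sets -0.44.

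Words in the gene table gave further genes of this kind, a search made after values had been seen. SRC2, annotated as regulated by cold, had a log2 ratio of -0.63, and the dehydrin AT1G54410 (HIRD11) had -0.79, both under 2-fold. COR27 lay below the floor on both arrays. Of 4 measured genes with drought or salt in their names, apart from ZAT10, all were under 2-fold, between -0.59 for SIS and 0.84 for DI21. None of the 16 abscisic acid genes listed was named alone by a probe set in the annotation used, and they were not analysed here.

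Of the touch list of 19 genes, 3 were measured, 2 of them 2-fold or more higher and 1 of them 2-fold or more lower, with a median of 1.44. WRKY53, a transcription factor of senescence and early stress responses, had a signal of 638 in 35S::AtC3H14 stems, against 236 in wild type, 2.71-fold higher, next to the 3.05-fold of ZAT10. CML38, a calmodulin-like calcium sensor induced by touch and wounding, had 102 in 35S::AtC3H14 stems, just under the floor, and 325 in wild type, at least 3.12-fold lower. The 3 measured touch genes were thus split in direction, as the 4 measured cold genes were. Scaled to the hybridization controls, the touch list median, which is the ratio of WRKY53, was 0.91, against -0.44 for all measured probe sets.

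Of 5 measured WRKY genes in the table WRKY53 alone passed 2-fold, with WRKY6 at a log2 ratio of 0.88 and a median of -0.04. Of 5 measured calmodulin-like genes, out of 8 with a probe set, 2 were at least 2-fold lower, CML38 and CML41, and the median was 0.08. CML41 was 2.60-fold lower, with a signal of 128 in 35S::AtC3H14 stems, near the floor. Among all measured probe sets 5.27% were 2-fold or more higher and 5.78% lower. Nothing is read from these small counts. Of the ZAT10 family list, the 2 other measured loci, AT2G28200 and AT3G60580, had log2 ratios of 0.06 and 0.15. The gene table gives them locus codes only.

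**Figure D3:**
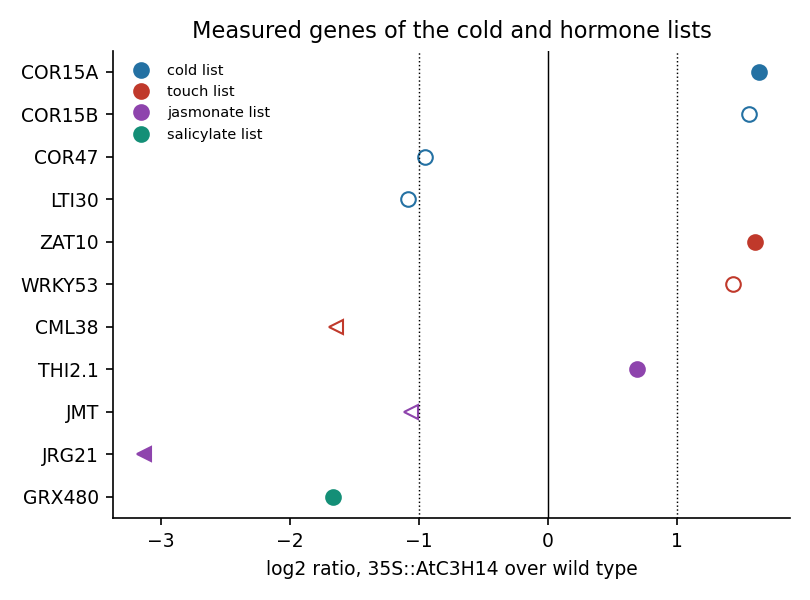
Log2 ratio, 35S::AtC3H14 over wild type, of every measured gene on the cold, touch, jasmonate and salicylate lists (filled, the 5 marker genes; open, other listed genes; triangles, bounds; dotted lines, 2-fold). Cold and touch genes lie on both sides of 0, while JMT and JRG21 lie at or beyond 2-fold lower and THI2.1 lies above 0.

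Of 35 jasmonate genes 3 were measured: 2 were at least 2-fold lower and 1 under 2-fold, with a median log2 ratio of -1.06, the bound of JMT. JMT, which makes the volatile methyl jasmonate, had a signal of 7.56 in 35S::AtC3H14 stems and 217 in wild type, at least 2.09-fold lower. Both genes past 2-fold, JRG21 and JMT, encode enzymes that modify jasmonic acid, whereas THI2.1 is a defence product. PDF1.2, the defensin that GRX480 can repress, lay below the floor on both arrays, at 58.1 in 35S::AtC3H14 stems and 27.5 in wild type. PDF1.2b had a signal of 122 in 35S::AtC3H14 stems, against 45.3 in wild type, a bound of 1.17-fold that leaves its size open, read by a probe set that can cross-hybridise.

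The gene list written around JRG21 as the family of jasmonate oxidases held 3 further loci, which the gene table gives by locus code only. AT5G05600 had a signal of 891 in 35S::AtC3H14 stems, against 1038 in wild type, a ratio under 2-fold. AT2G38240 had 8.18 in 35S::AtC3H14 stems and 117 in wild type, and AT3G11180 had 123 in 35S::AtC3H14 stems and 45.4 in wild type, both with bounds under 2-fold. JRG21 was the 1 locus of these 4 shown to be past 2-fold. The list median of -0.20 lies between the bound of AT2G38240 and the ratio of AT5G05600 and depends on the floor. It was -1.99 with no floor, -0.74 when scaled to the hybridization controls and -0.60 with a pseudocount of 100. Under the control scaling AT3G11180 fell below the floor on both arrays and left the median, which was then the ratio of AT5G05600. The other thionins on the list, THI2.2 and 2 loci, did not reach the floor on either array, so THI2.1 was the only thionin of 4 with a measured signal.

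Of the 29 salicylate genes GRX480 alone was measured. SAG101, a partner of EDS1 in basal resistance, lay below the floor on both arrays, at 91.8 in 35S::AtC3H14 stems and 86.2 in wild type. The salicylate side of the contrast therefore rests on 1 gene, and the level of salicylate signalling was not analysed here beyond it.

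GRX480 was low together with most measured loci of a list written for the CC-type glutaredoxins, a plant-specific class of small thiol proteins. The list of 20 came from general knowledge of the family, and the gene table names only GRX480, ROXY1 and ROXY2 of the 16 loci with a probe set, so the family of the other 13 could not be checked here. Of 11 measured loci 7 were at least 2-fold lower, none was at least 2-fold higher and 4 were under 2-fold, with a median log2 ratio of -1.26. Without GRX480 there were 10, of which 6 were at least 2-fold lower, and the median was again -1.26. The share among all measured probe sets was 5.78%, but the list was chosen with earlier results of these data known. Nothing is therefore read from its count against that share. With GRX480 included, the list median was -1.78 when scaled to the hybridization controls, against -0.44 for all measured probe sets. The median was -0.61 with a pseudocount, which drops the floor and so takes in all 16 loci with a probe set, not the 11 measured.

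The largest differences on that list were bounds. AT3G62950 had a signal of 5.48 in 35S::AtC3H14 stems and 622 in wild type, at least 5.98-fold lower. AT3G62960 had 81.9 in 35S::AtC3H14 stems, against 610 in wild type, at least 5.86-fold lower. Among loci above the floor on both arrays, AT5G18600 was 3.64-fold lower, AT4G15660 2.89-fold and AT5G11930 2.40-fold. AT3G62930 was at least 2.39-fold lower, AT2G30540 had a log2 ratio of -0.83, and AT4G15700 had a bound of -0.26 in log2 ratio. In all, 10 of the 11 measured loci had a lower signal in the overexpressor, although AT1G03020 had a log2 ratio of only -0.16. AT4G15680 alone of the 11 had a bound on the higher side, 1.14-fold. The 5 loci below the floor on both arrays lay on both sides. AT1G06830 and ROXY1 were higher in the overexpressor, and AT4G15690, ROXY2 and AT2G47880 lower. The median log2 ratio of all measured probe sets was 0.05. The list was chosen with earlier results known, so nothing is read from this count either. Loci of this list have related sequences, so their probe sets may share signal and are not independent readings. GRXC1 and GRXC2, glutaredoxins of another class found by name after values had been seen, had log2 ratios of -0.90 and 0.46.

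**Figure D4:**
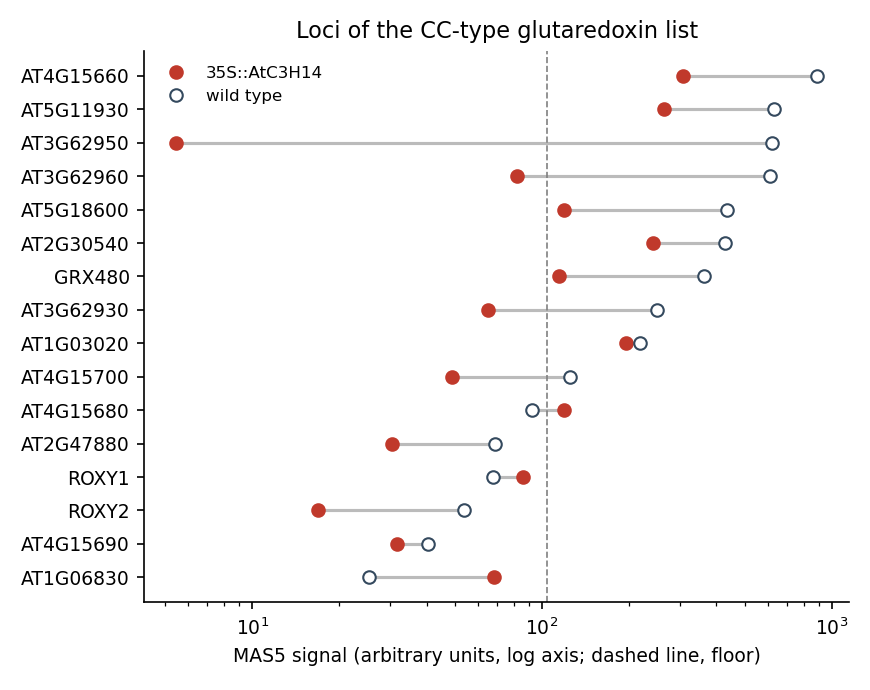
MAS5 signal (log axis, arbitrary units) in 35S::AtC3H14 (filled) and wild type (open) of the 16 loci of the CC-type glutaredoxin list with a probe set, ordered by wild-type signal, with the floor of 104.0 as a dashed line. Of the 11 loci that reach the floor on either array 10, GRX480 among them, have a lower signal in 35S::AtC3H14. The 5 loci below the floor on both arrays lie on both sides. The list was chosen with earlier results known.

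Tissue markers were read beside these genes. The 5 stem wall genes of 14 with a probe set lay far above the floor on both arrays, summing to 16507 in 35S::AtC3H14 stems and 19692 in wild type, and all were under 2-fold. Their log2 ratios were -0.02 for GUT2, 0.22 for GUT1, -0.45 for IRX15, -0.07 for IRX15-L and -0.47 for HCT. The 3 leaf photosynthetic genes of 7 summed to 36622 in 35S::AtC3H14 stems and 38276 in wild type, with log2 ratios of -0.32 for LHCB4.1, 0.04 for RCA and 0.09 for PRK. Both floral loci with a probe set, of 7 listed, lay below the floor on both arrays, summing to 76.0 in 35S::AtC3H14 stems and 19.2 in wild type. No gene of these lists had a signal of 0. PYK10, a root beta-glucosidase and the 1 root and silique gene of 5 with a probe set, had a signal of 56.4 in 35S::AtC3H14 stems, against 614 in wild type. WSD1, a wax synthase and the 1 epidermal gene of 5, had 466 in 35S::AtC3H14 stems and 11.3 in wild type. The part of root, silique or epidermal cells in the marker ratios was not tested. In bulk stem RNA, fewer cells of a type and less RNA per cell cannot be told apart, nor can genotype and any unlabelled difference in harvest or handling between the 2 samples.

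Scaling and the handling of low signals moved the sizes of the 5 ratios but not their directions. All 18 hybridization control probe sets were higher on the 35S::AtC3H14 array, by 1.44-fold on average. Scaled to them, ZAT10 had a log2 ratio of 1.09, COR15A of 1.11, JRG21 a bound of -3.41 and GRX480 a bound of -2.08. ZAT10 and JRG21 stayed past 2-fold under all 7 alternatives, and THI2.1 under none of the 6 that gave it a ratio. COR15A and GRX480 stayed past it under 6 of 7. The 60th percentile floor gave these genes only bounds under 2-fold, which leave the size open. Dropping the floor could not change ZAT10, COR15A, THI2.1 or GRX480, whose signals lay above it on both arrays. The raised floor likewise could not change ZAT10.

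**Figure D5:**
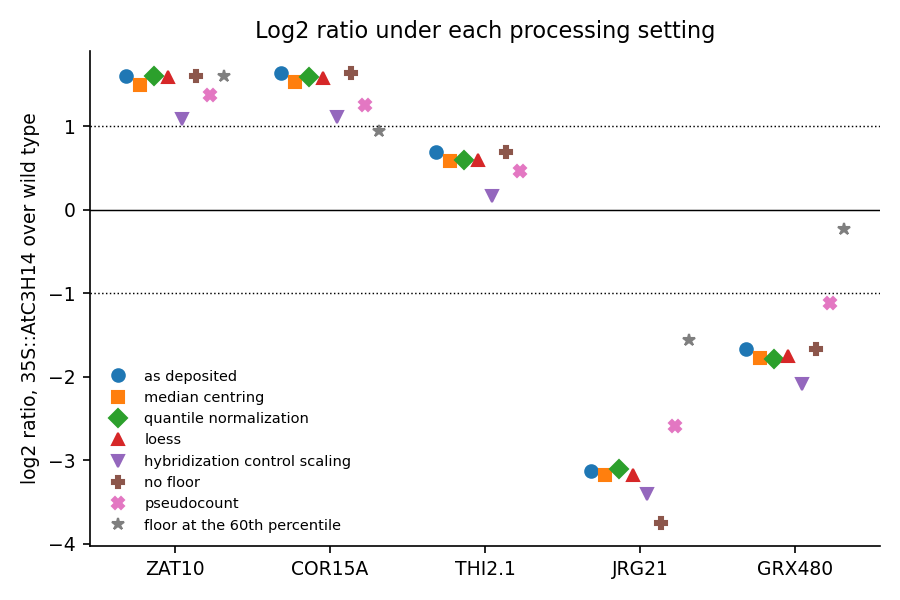
Log2 ratio, 35S::AtC3H14 over wild type, of each marker gene as deposited and under the alternative settings (symbols), with dotted lines at 2-fold. No gene crosses 0 and THI2.1 stays under 2-fold. With the 60th percentile floor COR15A and GRX480 have only bounds, of 0.94 and -0.24.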

How the data were processed

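Stem RNA of 1 35S::AtC3H14 and 1 wild-type sample was measured on the ATH1 array, from 10 ug of total RNA per the labels' protocols. The deposited values are intensity signals on a linear scale, made by the authors with MAS5 per the submitters' processing notes, which name no version. The 2% trimmed mean was 500.04 on both arrays, so a shift of all transcripts cannot be seen. The number of arrays limits the precision.

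Gene names came from the platform annotation and the TAIR10.1 gene table: 13513 named 1 gene, 503 several and 8730 none. After setting 64 control probe sets apart, signals under the floor were set to it and log2 ratios taken. No test was run. Alternatives were median centring, quantile normalization, loess (span 0.4), hybridization control scaling, no floor, a floor at the 60th percentile, a pseudocount of 100 and a 3-fold size. Genes named are the 5 markers, AtC3H14, every measured gene of the lists and the 2 nearest genes to each marker; others were chosen after their values were seen. Members and lists were chosen with earlier results of these data known. The ratio code was tested on simulated data. Python 3.11.15, pandas 2.3.3, numpy 2.4.6 and statsmodels 0.14.6 were used.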

Additional observations from a re-analysis of the deposited data

How the results depend on the processing

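No paired analysis was possible because each group had 1 array, and for the same reason no array could be left out. Median centring, quantile normalization and loess left each marker ratio, the contrast and each list median within its spread, and each count within 1.5 times its value. Taking the brightest probe set of a gene could not change a list median, since each listed locus had only 1. With hybridization control scaling, the log2 ratio was 1.11 for COR15A, 1.09 for ZAT10, 0.17 for THI2.1 and -2.08 for GRX480, list medians were -1.78 for CC-type glutaredoxins, -0.22 for cold, -0.74 for jasmonate oxidases, -0.48 for photosynthesis, -0.59 for stem wall and 0.91 for touch, and 281 probe sets were higher and 2410 lower by 2-fold; the median of all measured probe sets moved to -0.44. With the pseudocount, which also drops the floor, COR15A had 1.25, GRX480 -1.11, JRG21 -2.59 and the contrast of the 2 marker sets 2.39, and list medians were -0.61 for CC-type glutaredoxins, -0.63 for jasmonate and -0.60 for jasmonate oxidases. With no floor JRG21 had -3.75, the jasmonate median, which then includes PDF1.2, was -1.53, and that of jasmonate oxidases -1.99. Of all 22746 probe sets, 3428 were then higher and 2409 lower, a larger set than the 14469 measured as deposited. With the floor at the 60th percentile COR15A, GRX480 and JRG21 had only bounds, of 0.94, -0.24 and -1.56. The cold median was -0.43 and the touch median 1.05 there, and of 9986 measured probe sets 364 were higher and 534 lower. THI2.1 and the contrast had no value at that floor. At 3-fold, with the main floor, 234 of the 14469 were higher and 242 lower. Low signal limits COR15A, THI2.1, GRX480 and JRG21, whose overexpressor signal lay below the floor. Hybridization control scaling lowers by 0.52 the log2 ratio of every gene above the floor on both arrays after scaling. It also took AT3G11180 out of the jasmonate oxidase median, and its counts were out of 14517 measured probe sets. With no floor or a pseudocount, all 22746 probe sets count as measured, and listed genes below the floor enter their list medians. Why the hybridization controls differed between the arrays was not tested.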
